A study of Homo sapiens with 2 samples.

Results

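Binding of the transcription factor CREB was mapped in NGP, a line of human neuroblastoma cells, and 158 microRNA genes lay near its peaks. They were the symbols of the authors' peak-to-gene table that begin with MIR and a digit, or with MIRLET, and do not end in HG, out of 2495 symbols in that table. Each was paired with a peak within 50 kb of its transcription start site (TSS), and its nearest peak was the one whose summit lay closest to that site. The members were chosen by the measured positions of the peaks, so their distances and peak heights are given as a description, without a test. Chromatin from NGP cells, grown in 20% serum and harvested near confluency, was immunoprecipitated with an antibody against CREB, and its sequenced fragments were compared by the peak caller with 1 input library made without immunoprecipitation. Both libraries were built from 4 ng of DNA, and because neither was repeated, the spread between cultures is unknown. The labels name no treatment or knockdown for either library, and the series set out to find genes that the kinase CAMKV controls through CREB.

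MicroRNAs are short RNAs cut from a hairpin in a longer primary transcript, and they pair through their seed, bases 2 to 8 of the mature strand, with messenger RNAs whose translation or stability they lower. Many hairpins sit in introns of protein-coding or long noncoding host genes and share the host's promoter. CREB is a transcription factor activated by cAMP and calcium signalling that binds the cAMP response element TGACGTCA, or its half-site TGACG. In neurons, CREB is known to drive the transcript of miR-132 and miR-212. The TSS that the table gives for a microRNA is the 5′ end of its hairpin, not the start of the primary transcript, so nearness to it does not mark a promoter.

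The mature sequences of the members discussed most are shown first, with the seed in capitals, from RefSeq annotation of GRCh38.p14. A mature sequence was matched for 136 of the 158 members. The first set belongs to the hairpins closest to a summit, together with miR-30c, which shares the miR-30a seed and the same peak.
hsa-miR-30a-5p: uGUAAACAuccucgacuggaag
hsa-miR-30c-5p: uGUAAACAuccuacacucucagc
hsa-miR-4442: gCCGGACAagagggagg
hsa-miR-4453: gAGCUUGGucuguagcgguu
hsa-miR-4444: cUCGAGUUggaagaggcg
The second set shows the seeds that recur among members, from the miR-302 cluster, the let-7 family and the miR-219 family.
hsa-miR-302a-3p: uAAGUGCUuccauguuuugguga
hsa-miR-302b-3p: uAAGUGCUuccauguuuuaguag
hsa-miR-302c-3p: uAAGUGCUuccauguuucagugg
hsa-miR-302d-3p: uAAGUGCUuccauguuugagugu
hsa-let-7g-5p: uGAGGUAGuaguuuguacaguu
hsa-miR-4500: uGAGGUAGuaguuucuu
hsa-miR-219a-5p: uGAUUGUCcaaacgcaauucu
hsa-miR-6766-3p: uGAUUGUCuucccccacccuca

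Over the genome, the share of microRNA genes near a CREB peak was close to that of other genes at 50 kb and below that of protein-coding genes at 1 kb. Outside chromosome 21 below 13 Mb, 145 of 1904 RefSeq microRNA genes (7.62%, 95% interval 6.46 to 8.90) had a summit within 50 kb of the hairpin. The share was 8.27% for the 27269 other RefSeq genes measured at the nearest of their starts. Chromosome 8 was not used for these, and without it the microRNA share was 7.61%. Not all other genes were covered, since RefSeq lists 20056 protein-coding genes. By type, the share was 9.04% for the 15826 protein-coding genes covered and 7.21% for the 11443 long noncoding RNA genes. Within 1 kb it was 0.473% of microRNA genes (9 genes, interval 0.216 to 0.895), 1.48% of protein-coding genes and 0.559% of long noncoding RNA genes. These intervals cover counting error only, and neighbouring hairpins share peaks, so the genes are not independent.

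The authors' table placed 149 of the 158 members outside chromosome 21 below 13 Mb, on 22 chromosomes. They shared 118 nearest peaks, and 133 of them were paired with 1 peak each, 14 with 2 peaks and 2 with 3 or more. Chromosome 1 held 18 of them, chromosome 11 held 12 and chromosome 19 held 11. Only 1 of the 149 had its nearest peak in a 1 Mb window with 10 or more peaks, MIR3620 within ARF1 on chromosome 1, against 3.45% of all symbols. Hairpins within the bounds of a protein-coding gene numbered 101, those within a long noncoding RNA gene alone 18, and those in neither 30. These counts ignore strand and introns, so they do not mark a shared promoter. The same share over all RefSeq microRNA genes was not measured.

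Most of these hairpins were far from the summit. The median distance was 20.3 kb (quartiles 10.2 to 35.8 kb), against 19.9 kb over all 2466 symbols of the table outside chromosome 21 below 13 Mb. A summit within 1 kb was found for 10 members (6.71%, 95% interval 3.27 to 12.0), and for 14% of all symbols. Within 10 kb there were 37 members, which is 24.8%, against 31.8% of all symbols. The summit lay upstream of the hairpin in 71 members and downstream in 78, while it lay upstream for 51.3% of all symbols. Inside the 50 kb limit of the rule the farthest member was MIR7106, with 49862 bp from the edge of its peak, and just outside it MIR1-2 lay 50441 bp from a summit.

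**Figure D1:**
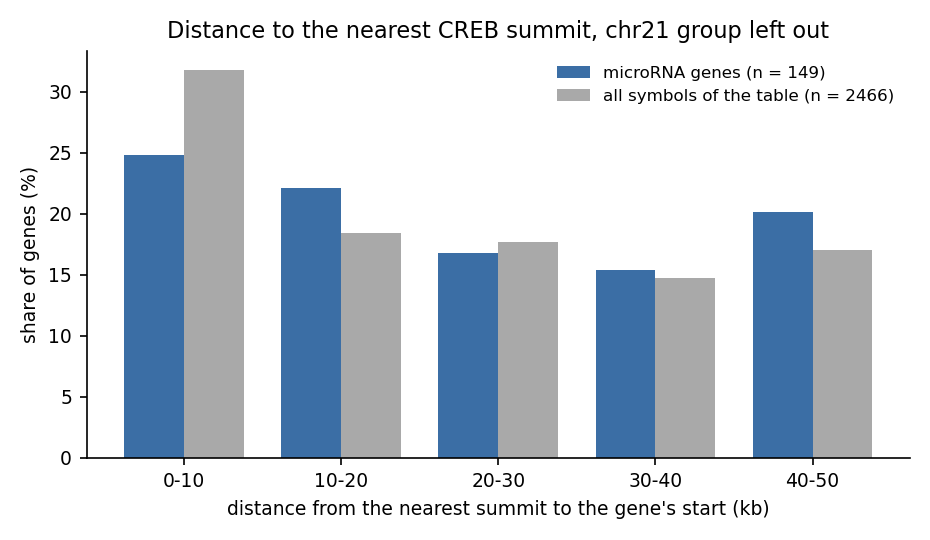
Share of genes (%, vertical axis) by distance from the nearest summit to the gene's start (kb, horizontal axis), for the 149 microRNA genes and for all 2466 symbols of the table outside chromosome 21 below 13 Mb. In the nearest bin the bars stand at 24.8% and 31.8%, and in the other bins the 2 sets differ less.

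The peaks themselves were mostly weak. The fold enrichment (the authors' ratio of fragments at the summit to the expected background, with 1 added to both) had a median of 4.82 (quartiles 4.01 to 6.26) for the nearest peaks of the 149 members, and also 4.82 over all symbols. The number of fragments at a summit was recovered from its fold and p-value. The median was 6 fragments (quartiles 5 to 8), 37 members rested on 4 fragments, the fewest in the set, and 116 (77.9%) on at most 9. Over all 2466 symbols the median was also 6, with 595 symbols on 4 fragments and 85.3% on at most 9. A fold of 10 was reached for 14 members (9.40%), against 7.1% of all symbols, and a −log10 q of 5 for 42 (28.2%), against 26.9%.

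**Figure D2:**
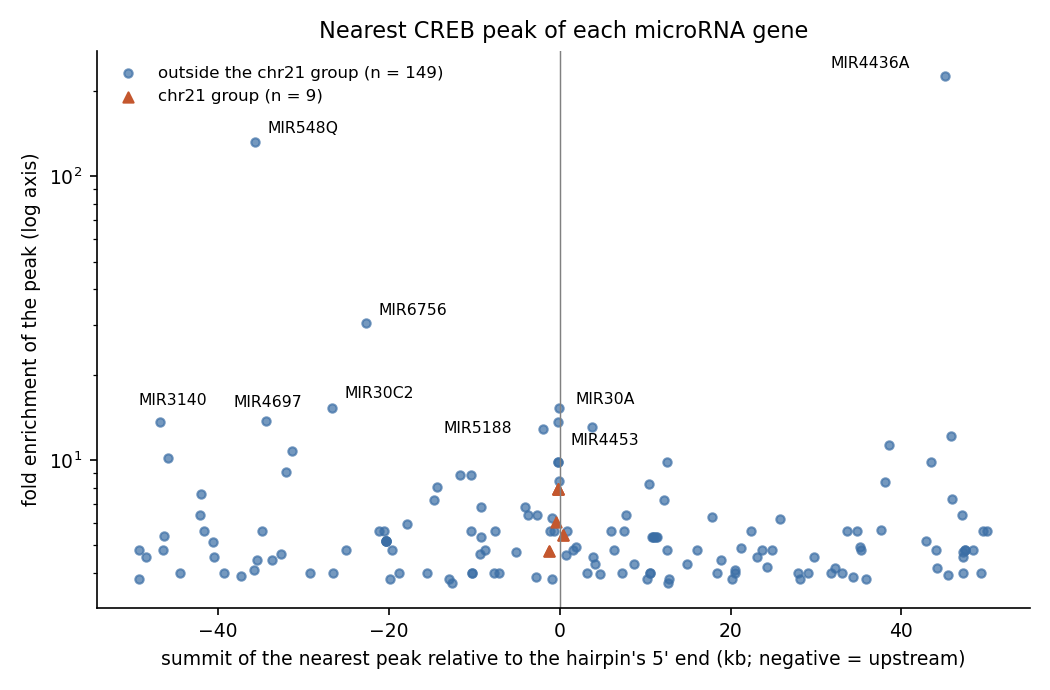
Each point is 1 microRNA gene, by the position of its nearest summit relative to the hairpin's 5′ end (kb, horizontal axis, negative upstream) and the peak's fold enrichment (log axis); triangles are the 9 genes of chromosome 21 below 13 Mb. MIR4436A and MIR548Q stand highest, at 226 and 132, and both lie over 35 kb from the summit, while MIR30A is the highest of those close to it.

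The closest summit lay beside MIR30A, on chromosome 6. miR-30a is known for lowering Beclin 1 and thereby restraining autophagy. Its peak, at chr6:71403453-71403749, covered the whole hairpin (71403551 to 71403621), with the summit 54 bp upstream of the hairpin's 5′ end. Its 18 fragments (95% interval 10.7 to 28.4), where 0.246 were expected, gave a fold of 15.3, and it was the only peak in its 1 Mb window. Among the 149 members MIR30A was the only hairpin wholly inside its peak. No other annotated start lay nearer than that of LINC00472, a long noncoding RNA. The summit lay 17.1 kb downstream of that start, in the direction in which LINC00472 is transcribed. MIR30C2, which has the same seed, was paired with this peak from 26.6 kb and with no other. Thus 2 hairpins of 1 seed family had a single peak between them, placed at the MIR30A hairpin.

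The next closest summits lay at starts of other genes. MIR4442 on chromosome 3 had a summit 92 bp upstream, with a fold of 8.45 and 10 fragments (4.80 to 18.4). The same summit lies 124 bp upstream of TOP2B, which encodes DNA topoisomerase II beta, an enzyme that relieves DNA strain at active genes, and the bases of mature miR-4442 begin at position 17 after that start. MIR4453 on chromosome 4 had a summit 205 bp upstream (fold 13.6, 16 fragments, interval 9.15 to 26.0), which is 41 bp from the start of its host MIR4453HG and 131 bp from that of FBXW7 on the opposite strand, a ubiquitin ligase subunit known to mark MYC proteins for degradation. MIR3140, inside FBXW7, was paired with this peak from 46.8 kb. MIR4444-1 on chromosome 2 had a summit 224 bp upstream (fold 9.88, 12 fragments, interval 6.2 to 20.96), which lies 192 bp from HNRNPA3, a splicing and RNA-binding protein gene, and 91 bp from the noncoding LOC105373759. The 3 hairpins that overlapped their peak were those of MIR30A, MIR4442 and MIR4444-1, and no summit fell inside a hairpin.

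The other members within 1 kb had lower folds. MIR3913-1 and MIR3913-2, which overlap on opposite strands of chromosome 12, had a summit 716 and 816 bp from their ends, with a fold of 5.60 and 17 fragments over a background of 2.21. That summit is 80 bp from the start of CCT2, a chaperonin subunit gene. MIR3681 had a summit 731 bp downstream (fold 4.63, 5 fragments) and MIR3649 one 930 bp upstream (fold 6.26, 7 fragments), and the nearest other starts lay 7032 and 29760 bp from those summits. MIR1205 on chromosome 8, within the long noncoding RNA gene PVT1, had one 943 bp upstream (fold 3.8, 4 fragments), and MIR1206 was paired with the same peak from 49.2 kb. MIR4444-2 is counted among the 10 because the table gives it the TSS of MIR4444-1, while RefSeq places it on chromosome 3, 454740 bp from a summit.

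**Figure D3:**
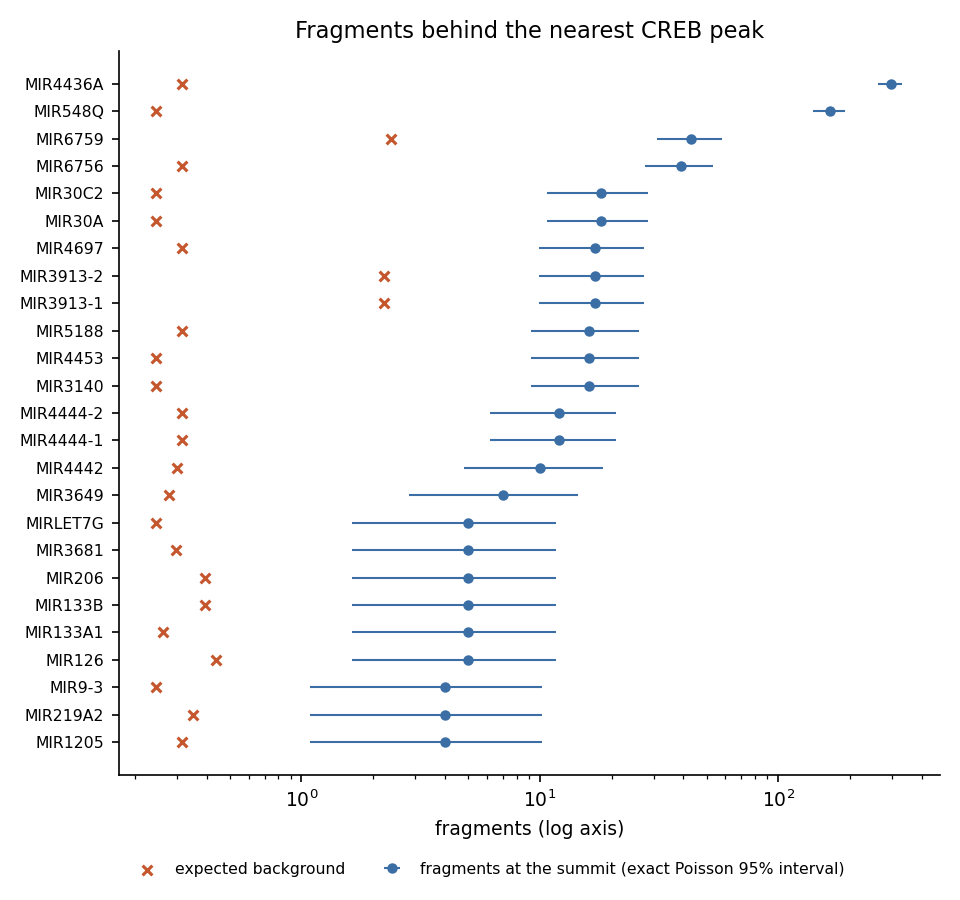
Fragments at the summit (points, log axis) with exact Poisson 95% intervals, and the expected background (crosses), for the members outside chromosome 21 below 13 Mb that are within 1 kb of a summit, have the 10 highest folds or belong to the microRNA lists. Counts run from 4 to 296, and at 4 fragments the interval spans 1.09 to 10.2.

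The 3 highest folds belonged to peaks at least 22.6 kb from the hairpin. The peak paired with MIR4436A (fold 226, 296 fragments, interval 263 to 332) lies 45.1 kb downstream of it on chromosome 2 and 1908 bp from the start of the uncharacterised LOC124907856. The peak paired with MIR548Q, a hairpin inside the kinase gene CAMK1D on chromosome 10, lies 35.7 kb upstream (fold 132, 164 fragments, interval 140 to 191). In the authors' table neither of these peaks was paired with any other symbol. The peak of MIR6756, inside the adhesion gene MCAM on chromosome 11, lies 22.6 kb upstream (fold 30.4, 39 fragments), and is 1097 bp from the start of RNF26. MIR5188 on chromosome 12 had a summit 1946 bp upstream (fold 12.9, 16 fragments). MIR6759, inside the CDK4 and TSPAN31 bounds, was 3.8 kb from the summit at TSPAN31 (fold 13.1, 43 fragments over a background of 2.37). MIR4697, inside IGSF9B on chromosome 11, was paired at 34.3 kb with a peak of fold 13.7 and 17 fragments, 24.1 kb from the IGSF9B start.

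The nearest peak of a microRNA was often nearer to another gene. For 109 of the 149 members (73.2%) the summit lay closer to the start of another gene than to the hairpin, and for 49 (32.9%) another start lay within 1 kb of the summit, the nearest being protein-coding in 41. Counted by peak, 36 of the 118 nearest peaks had another start within 1 kb. These shares were not measured over all symbols or all peaks, so they are not shown to be particular to microRNA genes. These 36 had a median fold of 6.42 (quartiles 5.18 to 8.29), and 22 passed a −log10 q of 5. The other 82 had a median of 4.59 (4.01 to 5.62), and 14 passed. Both groups come from the same library, so the difference describes this list and was not tested.

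Several of these peaks sat almost on the start of a gene other than the microRNA. The summit paired with MIR6751 at 45.8 kb lay 17 bp from ZFPL1 on chromosome 11 (fold 12.2, 15 fragments). MIR190B, on chromosome 1, lay 10.4 kb from a summit 82 bp from a RefSeq start of the tropomyosin gene TPM3 (fold 8.26, 10 fragments). The TPM3 start in the authors' table is 8.8 kb from that summit. MIR3122 lay 41.9 kb from a summit (fold 7.60, 9 fragments) between the divergent RefSeq starts of INTS7 and DTL. INTS7, an Integrator subunit gene, starts 130 bp from it and DTL, a ubiquitin ligase adaptor gene, 61 bp from it. In the authors' table these distances are 27 and 134 bp. In each of these cases a RefSeq start of the other gene was far closer to the summit than the hairpin was.

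For 20 of the peaks the summit fell inside a RefSeq promoter window, the 300 bases from 250 before to 50 after an annotated start. These windows were searched for the full element TGACGTCA, which reads the same on both strands, and for the half-site TGACG or CGTCA, which the full element contains. A half-site occurred in 17 of the 20 peaks' windows and the full element in 3. Counted as windows, 24 of 29 (82.8%, 95% interval 64.2 to 94.2) held a half-site and 4 (13.8%, 3.89 to 31.7) the full element. Of all 34943 distinct RefSeq windows, 24.5% held a half-site and 1.84% the full element. Of the 184 windows that held any summit of the list, 88.0% (interval 82.5 to 92.4) held a half-site and 38.04% (31.0 to 45.5) the full element. The 17 peaks with a half-site had it at a median of 50 bp from the summit, from 2 bp to 170 bp. Windows on neighbouring starts can overlap and share their bases, and base composition was not matched between these sets.

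**Figure D4:**
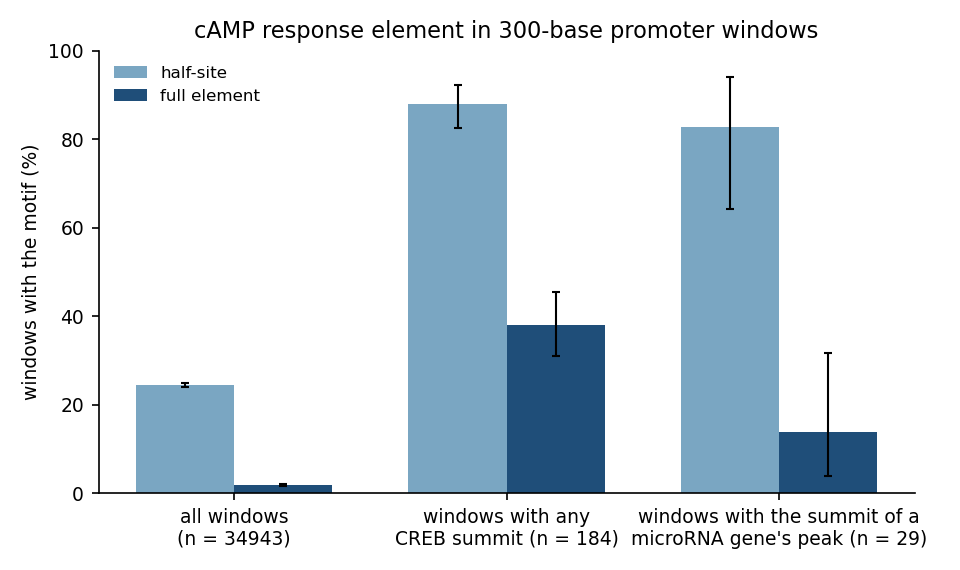
Share of 300-base promoter windows (%) with the half-site or the full cAMP response element, in all windows, in those holding any CREB summit and in those holding the nearest summit of a microRNA gene; bars start at 0 and error bars are exact Clopper-Pearson 95% intervals. The half-site stands at 24.5%, 88.0% and 82.8%, and the full element at 1.84%, 38.04% and 13.8%.

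Windows are shown for the 3 peaks nearest to a hairpin whose summit lies in one, and for 2 of the 3 peaks with the full element. Half-sites and full elements are in capitals, and each is written 5′ to 3′ on the strand of the named gene, in GRCh38.p14. The first, at MIR4453, holds 2 half-sites.
MIR4453HG (chr4:152536014-152536313, plus strand): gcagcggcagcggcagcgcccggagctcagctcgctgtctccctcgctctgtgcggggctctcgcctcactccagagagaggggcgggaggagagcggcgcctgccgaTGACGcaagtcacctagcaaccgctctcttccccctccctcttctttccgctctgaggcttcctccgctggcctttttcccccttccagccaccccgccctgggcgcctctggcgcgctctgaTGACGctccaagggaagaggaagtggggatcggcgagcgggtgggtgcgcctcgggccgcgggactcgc
The TOP2B window holds 1 half-site, 30 bp from the summit, and also holds the bases of miR-4442.
TOP2B (chr3:25664858-25665157, minus strand): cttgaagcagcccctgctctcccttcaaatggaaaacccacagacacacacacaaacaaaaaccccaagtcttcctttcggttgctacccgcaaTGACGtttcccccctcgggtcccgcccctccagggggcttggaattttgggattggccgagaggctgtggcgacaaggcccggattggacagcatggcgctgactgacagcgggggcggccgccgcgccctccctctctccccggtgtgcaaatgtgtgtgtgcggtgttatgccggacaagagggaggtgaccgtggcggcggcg
The LOC105373759 window, at MIR4444-1, holds 3 half-sites, all written here as CGTCA.
LOC105373759 (chr2:177212362-177212661, minus strand): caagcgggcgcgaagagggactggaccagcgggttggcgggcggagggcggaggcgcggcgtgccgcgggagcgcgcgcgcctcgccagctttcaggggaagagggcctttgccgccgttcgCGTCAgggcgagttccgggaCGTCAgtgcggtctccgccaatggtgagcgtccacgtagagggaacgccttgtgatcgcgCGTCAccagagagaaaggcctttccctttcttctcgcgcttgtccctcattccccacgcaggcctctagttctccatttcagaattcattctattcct
The LARP7 window, at the peak of the miR-302 cluster, holds the full element and 2 further half-sites.
LARP7 (chr4:112636893-112637192, plus strand): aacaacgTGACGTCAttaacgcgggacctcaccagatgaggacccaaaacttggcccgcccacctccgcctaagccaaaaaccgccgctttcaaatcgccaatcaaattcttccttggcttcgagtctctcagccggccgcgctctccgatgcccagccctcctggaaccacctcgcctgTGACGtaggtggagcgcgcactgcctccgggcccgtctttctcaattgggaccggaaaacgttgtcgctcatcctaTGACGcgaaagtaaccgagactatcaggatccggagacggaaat
The DTL window, at the peak of MIR3122, holds the full element 46 bp from the summit.
DTL (chr1:212035498-212035797, plus strand): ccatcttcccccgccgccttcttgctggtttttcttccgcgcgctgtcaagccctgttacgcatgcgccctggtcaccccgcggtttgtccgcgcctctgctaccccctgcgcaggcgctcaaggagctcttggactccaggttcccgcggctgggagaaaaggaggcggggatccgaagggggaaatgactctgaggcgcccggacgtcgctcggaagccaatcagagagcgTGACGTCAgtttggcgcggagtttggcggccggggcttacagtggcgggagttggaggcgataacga

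Some members had the same nearest peak. Of the 118 nearest peaks, 22 served 2 or more members, and 53 of the 149 members shared theirs. For comparison, all 2466 symbols outside chromosome 21 below 13 Mb had 1036 nearest peaks. Not all of the 53 are neighbours in RefSeq. They include MIR1302-9, MIR1302-10, MIR1302-11, MIR4771-2, MIR4444-2 and MIR3654, which RefSeq places elsewhere. The largest set with a common peak was the MIR302A, MIR302B, MIR302C, MIR302D and MIR367 cluster on chromosome 4, microRNAs typical of pluripotent cells. The cluster sits inside LARP7, on the opposite strand. All 5 were paired with the peak at the LARP7 start (fold 5.36, 6 fragments, interval 2.20 to 13.1). Its summit lies 10.8 to 11.4 kb downstream of them and 18 bp from the RefSeq start of LARP7. In the authors' table the summit lies 166 bp from the start of ZGRF1 and 197 bp from that of LARP7. LARP7 encodes the protein that binds 7SK RNA. The cluster's own host transcript, MIR302CHG, starts 12.9 kb from the summit.

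**Figure D5:**
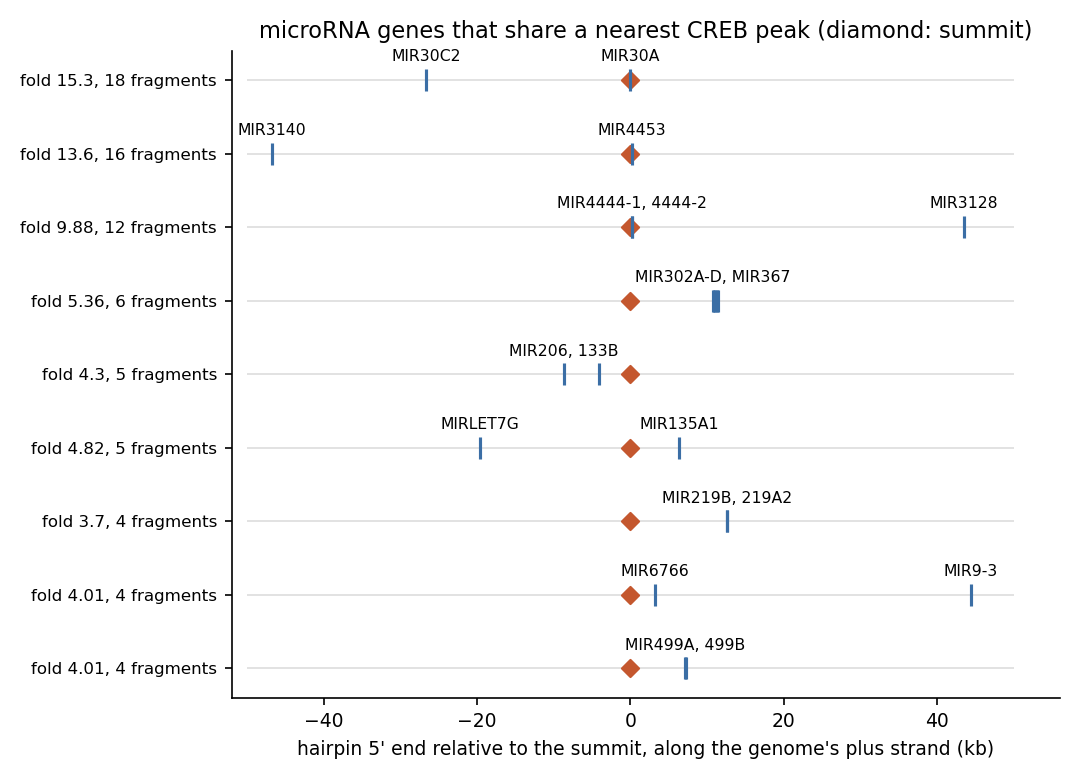
Hairpin 5′ ends (bars) relative to the summit of the nearest peak they share (diamond at 0), in kb along the plus strand, for 9 peaks, with fold and fragments on the left. MIR30A, MIR4453 and MIR4444-1 lie at the summit, and MIR4444-2 is drawn at the TSS the table gives it.

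MicroRNAs reported to respond to CREB were taken as a list of 10, chosen with earlier results of these data known. Of these, 2 were in the table (MIR219A2 and MIR9-3) and none had a summit within 1 kb. MIR132 and MIR212, the best-known CREB targets, and MIR134, MIR34B and MIR34C were not in the table. For scale, 8.26% of all 1913 RefSeq microRNA genes were in it, so counts this small say little about the list. MIR219A2 on chromosome 9, of a family enriched in brain and in oligodendrocyte maturation, was 12.6 kb from a summit with a fold of 3.70 and 4 fragments (1.09 to 10.2). MIR219B, on the other strand of the same locus, shared that peak. MIR9-3 on chromosome 15, of a family of neural progenitor regulators, was 44.4 kb from a summit with a fold of 4.01 and 4 fragments, and that summit lay 3.2 kb from MIR6766, inside the mitochondrial polymerase gene POLG. miR-6766-3p and miR-219a-5p carry the same seed, GAUUGUC, at separate peaks.

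Of 27 microRNA genes linked to neuroblastoma or MYCN, 1 was in the table, and none of the 17 neuronal genes was. Thus MIR17 and its cluster, MIR34A, the MIR124 genes, MIR128-1 and MIR137 were not in it. Over all RefSeq microRNA genes the share was 8.26%, so counts this small say little about either list. The 1 gene in the table was MIRLET7G, a let-7 gene inside WDR82 on chromosome 3, whose family opposes MYCN and LIN28. It lay 19.6 kb from a summit with a fold of 4.82 and 5 fragments (1.62 to 11.7), which is 133 bp from the start of GLYCTK and 6.4 kb from MIR135A1. MIR4500 on chromosome 13, which has the let-7 seed GAGGUAG, was 10.2 kb from another summit (fold 3.8, 4 fragments). Of 181 distinct seeds, 17 were shared by 2 or more members, and 8 of these lay over separate nearest peaks. Some of the 17 belong to copies of 1 microRNA, such as MIR4444-1 and MIR4444-2. Among the 8, GGCGGGG joins MIR10396B and MIR663A, and RefSeq places MIR663A on chromosome 20. The same share over all microRNA genes was not measured.

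MicroRNAs of other cell types were examined beside them. Of 22 such genes, 4 were in the table, none within 1 kb. Beside the 8.26% of all RefSeq microRNA genes in the table, a count this small says little about the list. MIR133B and MIR206, a muscle pair on chromosome 6, lay 4.1 and 8.7 kb from the same summit (fold 4.30, 5 fragments, interval 1.62 to 11.7), in and beside LINCMD1, a noncoding RNA of muscle differentiation. MIR133A1, also of muscle, lay 47.2 kb from a summit on chromosome 18 (fold 4.75, 5 fragments), and MIR126 of endothelium, inside EGFL7, 32.2 kb from one (fold 4.17, 5 fragments). No member of the liver, blood, epithelial or smooth muscle lists was in the table. MIR21, a microRNA raised in many tumours, and MIR146B and MIR150, of immune cells, were also members. MIR21 lay inside VMP1, 35.8 kb from a summit with a fold of 4.11 and 6 fragments. MIR146B lay 42.1 kb from a summit 203 bp upstream of a RefSeq start of NFKB2 (fold 6.42, 7 fragments). That summit is 265 bp downstream of the NFKB2 start in the authors' table. MIR150 lay 37.3 kb from a summit of fold 3.89 with 5 fragments.

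The protein genes that make and use microRNAs were taken as a list of 23. Of these 2 were in the table. NCBP1, a subunit of the nuclear cap-binding complex, had a summit 42 bp upstream of its TSS (fold 8.36, 10 fragments, interval 4.80 to 18.4). LIN28A, which blocks let-7 maturation, had one 21.5 kb downstream (fold 5.50, 7 fragments). DROSHA, DGCR8, XPO5, DICER1 and the AGO genes were not in the table. For comparison, 8.3% of RefSeq protein-coding genes were in it by current symbol. The 6 microRNA host genes of the table (symbols ending in HG) included 1 with a summit within 1 kb, MIR4453HG, and the others lay 12.9 to 45.7 kb away.

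On chromosome 21 below 13 Mb the table placed 9 microRNA genes, in the region of the ribosomal RNA units. They were the 4 MIR6724 genes, MIR3648-1, MIR3648-2, MIR663A, MIR10396A and MIR10396B, at 5 separate TSS. These 9 made up 396 of the 564 pairs between microRNA genes and peaks, through 106 peaks, with 37 to 64 peaks for each. Their nearest summits lay 226 to 1300 bp away, within 1 kb for 7 of the 9. The nearest peaks were 4 in number, with folds of 7.93 (MIR6724 genes, 19 fragments), 6.06 (MIR663A, 14 fragments), 5.46 (MIR3648 genes, 9 fragments) and 4.79 (MIR10396 genes, 12 fragments). Their median background was 1.52 fragments, against 0.282 for the 149 other members. The ribosomal RNA units are near-identical, so the assignment of reads to 1 copy is uncertain.

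The table gives each symbol a single TSS, and for copies of a microRNA this was not always its own place. Its TSS matched the RefSeq hairpin end exactly for 143 of the 149 members outside the region and for 3 of the 9 within it. MIR1302-2, MIR1302-9, MIR1302-10 and MIR1302-11 all had the TSS at 30366 of chromosome 1, whereas RefSeq places the last 3 on chromosomes 9, 15 and 19, 290471, 196584 and 970249 bp from a summit. MIR4771-2 and MIR3654 were likewise 1565988 and 294569 bp from a summit at their RefSeq positions. MIR663A lies on chromosome 20 in RefSeq (26208186 to 26208278), 52316 bp from a summit. MIR6724-2, MIR6724-3, MIR6724-4, MIR3648-2 and MIR10396A stay on chromosome 21, where summits lay 53 to 469 bp from their RefSeq hairpins. At RefSeq positions 151 of the 158 symbols had a summit within 50 kb.

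Some members lay where MACS2 expected more fragments by chance. Besides the chromosome 21 genes, 10 members at 6 peaks had a background above 1 fragment. They were MIR1279, MIR3913-1, MIR3913-2 and MIR6759 on chromosome 12 (2.21 to 2.37), the 4 MIR1302 genes at the start of chromosome 1 (1.90), MIR1324 on chromosome 3 (2.53) and MIR8078 on chromosome 18 (10.1). MIR8078 had 4 peaks from 1970 to 4768 bp downstream, with 54 fragments at the nearest and a fold of 4.95. MIR1279 lay 33.7 kb from the summit at the start of CPSF6 (fold 5.60, 17 fragments), whose half-site is 2 bp from the summit. Whether the higher background bears on these peaks was not tested.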

How the data were processed

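CREB-bound DNA of NGP cells and an input control were sequenced, 1 library each. The aligner Bowtie2, the peak caller MACS2 and build hg38 come from the submitters' processing notes, with versions and settings not stated in the sources used here. Each of the 5285 peaks in the deposited list carries a score, the summit's fold over background as a ratio, and its p-value and q-value as −log10. The authors' deposited table pairs 2495 symbols with peaks in 4780 rows, all matched to the list by position. Fold and q are the authors' values and only describe or rank peaks.

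From these, distances from summit to TSS were computed (Python 3.11.15, pandas 2.3.3, scipy 1.17.1). Fragments were recovered as a whole number, with fold = (fragments + 1) / (background + 1). That number had to give the −log10 p as a Poisson tail within 0.001 (a relative 1e-05 above 100), and 1 was found in 5285 of 5285 peaks. The step was tested on data simulated with the same formula, which cannot show that the peak caller used it. The simulated fragments and backgrounds did not reach the largest values reported here. More than 1 whole number was possible in a few peaks, none of them a member's nearest. Total library depth is unknown. Intervals (95%, exact Poisson or Clopper-Pearson) cover counting error only.

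The members, lists and motifs were chosen with earlier results of these data known. The named genes were the members within 1 kb of a summit, the 10 highest folds, the 5 with most peaks, list members, chromosome 21 genes below 13 Mb and members sharing a seed with these. MIR21, MIR146B, MIR150, MIR8078, the miR-302 cluster, MIR1206, MIR1279, MIR1302, MIR1324, MIR219B, MIR135A1, MIR190B, MIR6751, MIR3620, MIR3654, MIR4771-2 and MIR7106 were chosen after their values were seen. Other starts came from RefSeq GRCh38.p14 and the authors' table. Alternatives were stricter peaks, other distances, other gene positions and other counting units. Neighbouring genes of 2 peaks are not reported here. No test was made, since each group has 1 library.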

Additional observations from a re-analysis of the deposited data

How the results depend on the processing

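Of 29 alternatives, 20 left the count within 1.5 times its value or the median within its 95% interval. The RefSeq hairpin position and the count of each TSS once were added after seeing the data, as were all settings of the 1 kb count outside chromosome 21 below 13 Mb. With 5 kb in place of 1 kb, the 17 members near a summit became 32, and the 10 outside that region became 23. With 500 bp the latter became 5. Without peaks in windows of 10 or more peaks the 17 became 10, since the chromosome 21 genes drop out. Of the 149 members within 50 kb outside that region, 45 were left with a −log10 q of at least 5, 66 with a fold of at least the list's median, and 37 within 10 kb. With the stricter q the median fold moved from 4.82 to 8.45 and the median distance from 20289 to 12573 bp. No paired analysis was possible because each group has 1 library. At the median of 6 fragments the 95% interval runs from 2.20 to 13.1, so most nearest peaks cannot be ordered by height at this depth.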
